A study of Homo sapiens with 26 samples.

Results

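Zinc finger transcription factor genes were followed through 6 lists: RNAs associated with EZH2, retained introns near them, and genes changed under siRNA against EZH2. A gene was counted when its symbol starts with ZNF, ZSCAN, ZKSCAN, ZBTB or ZFP and a digit. The rule took 54 of the 4083 gene symbols in the lists: 43 ZNF, 6 ZBTB, 4 ZFP, 1 ZSCAN and 0 ZKSCAN genes. The symbol, not the protein, decides: ZFP36 (tristetraprolin) is an RNA-binding protein with fingers of another type, and no classical finger pattern was found in the annotated proteins of ZFP36, ZNF365 and ZNF839.

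EZH2 is the methyltransferase of the Polycomb repressive complex PRC2, and the study looked for RNAs bound to it and for artifacts of reverse transcription. Small RNA that co-precipitated with EZH2 or with IgG2a, and input RNA taken without antibody, came from nuclear lysates of K562 (chronic myeloid leukaemia, 1 library of each kind) and of the glioblastoma lines T98G and U87MG (2 of each kind per line), all established lines without treatment. T98G also gave 6 libraries of fragmented long RNA (EZH2, IgG2a and no antibody, 2 of each) and 1 EZH2 iCLIP library, in which RNA is crosslinked to the protein before precipitation. U87MG cells given siRNA against EZH2 or against GFP gave 2 polyadenylated RNA libraries each, 1 of them labelled as siRNA for EZH3 in its treatment field and as siEZH2 in its title. The deposited lists hold the authors' calls and no value for a single library, so read depth is unknown, no spread between replicates could be computed and no test between conditions was made. Shares are given with 95% Wilson intervals, which cover counting error over genes or exons only, and whether a marker of a cell line is expressed cannot be read from lists without levels.

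Classical C2H2 zinc fingers fold around a zinc ion held by a pair of cysteines and a pair of histidines, and arrays of them read DNA. Most ZNF genes are members of a large family that grew by duplication, much of it in clusters on chromosome 19. Many carry a KRAB domain, which recruits the corepressor TRIM28 and the methyltransferase SETDB1 to silence transposable elements, while ZSCAN proteins carry a SCAN dimerisation domain and ZBTB proteins a BTB domain that binds corepressors such as NCOR1 and BCOR. In a typical gene short 5′ exons encode the KRAB or SCAN domain and 1 long last exon encodes the whole finger array: of 494 annotated zinc finger genes with at least 5 finger patterns, 430 had all of them in the last exon.

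The sequences around the T98G peaks show which bases lie under the calls. The T98G list is the one with a value that was read as a position, the middle of the small RNA peak. That reading and the sign of the distance are inferred, and every peak position given here rests on them. Library kits of the type used ligate a 3′ adapter to the RNA, and a reverse transcription primer that matches this adapter can also start on RNA that resembles it. The adapter begins with AGATCGG, and its bases 7 to 13 are GAAGAGC, from general knowledge of the kit and not from the labels. Of the 30 zinc finger peaks, 28 have a middle on a whole base boundary. AGAT began 11 to 15 bases downstream in 4 of them, and in each the match ran on to AGATC. In the lines below the capitals mark the adapter letters, the strand is that of the RNA, the build is GRCh37 (hg19), and 20 bases before the peak middle (5 in untranslated regions) lead each sequence.
ZNF14 (5′ UTR, chr19:19843796-19843825, minus strand): acctgcaggtactgacAGATCcgtagggag
ZNF283 (5′ UTR, chr19:44332019-44332048, plus strand): aaggatgagaattttAGATCtggaagtgtc
ZNF451 (95 bp exon, coding, chr6:56989231-56989280, plus strand): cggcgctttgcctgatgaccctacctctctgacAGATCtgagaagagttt
ZNF839 (coding, chr14:102792877-102792926, plus strand): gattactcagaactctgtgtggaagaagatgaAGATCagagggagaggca

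A later part of the adapter, GAAGAG, began 17 to 21 bases downstream in 6 other zinc finger peaks, a search chosen after the peak sequences had been seen. The 4 coding ones are shown because all of them ran on to GAAGAGC; ZNF131 (5′ UTR, GAAGAGC) and ZFP41 (3′ UTR, GAAGAG) are the remaining pair.
ZNF106 (chr15:42740274-42740323, minus strand): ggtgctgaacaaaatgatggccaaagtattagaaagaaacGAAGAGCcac
ZNF451 (1604 bp exon, chr6:57011891-57011940, plus strand): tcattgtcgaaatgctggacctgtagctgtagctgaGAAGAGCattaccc
ZNF598 (chr16:2048391-2048440, minus strand): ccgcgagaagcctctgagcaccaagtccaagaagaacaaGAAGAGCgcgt
ZNF638 (955 bp exon, chr2:71654030-71654079, plus strand): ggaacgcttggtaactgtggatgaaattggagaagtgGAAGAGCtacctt

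The 6 letters AGATCG began in the window of 11 to 15 bases in 0 of 28 zinc finger peaks. They lay a few bases further on in ZBTB11, where they began at base 17, and in ZNF592, where they began at base 19. Both are printed to show the distance.
ZBTB11 (coding, chr3:101390986-101391035, minus strand): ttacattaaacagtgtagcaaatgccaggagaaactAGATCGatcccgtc
ZNF592 (coding, chr15:85342023-85342072, plus strand): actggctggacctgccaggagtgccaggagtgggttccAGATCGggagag

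Some zinc finger peaks lay on finger-coding sequence. A complete finger pattern was found in 12 T98G zinc finger exons, among them those of ZBTB42 and ZSCAN29, whose peaks lack a whole-base middle. A peak in an exon without a pattern could hardly lie in one, and no expected share was computed. Of the 28 peaks, 6 lay inside a complete finger pattern (in ZBTB47, ZNF236, ZNF512, ZNF592, ZNF597 and ZNF638). The 3 shown here have the codons of cysteine (TGC or TGT) and histidine (CAC) of the pattern in capitals, as far as they fall in the window. No adapter letters were found in either search window of these 3, but in ZNF597 GAAGAG began past the second window, at base 25.
ZBTB47 (chr3:42705374-42705423, plus strand): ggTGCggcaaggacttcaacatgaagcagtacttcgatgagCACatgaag
ZNF512 (168 bp exon, chr2:27826095-27826144, plus strand): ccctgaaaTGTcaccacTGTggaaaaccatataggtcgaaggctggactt
ZNF597 (chr16:3486530-3486579, minus strand): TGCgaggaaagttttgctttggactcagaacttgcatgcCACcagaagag

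Zinc finger genes were listed less often than protein-coding genes as a whole. The annotation holds 608 protein-coding genes that meet the symbol rule among 20163, and 25 of them (4.11%, 2.80 to 6.00) had an exon in the T98G small RNA list, where the background over all protein-coding genes was 9.27%. ZNF781, the other listed T98G gene, is non-coding in this annotation. In U87MG 7 of 608 (1.15%, 0.559 to 2.36) had a listed exon, beside a background of 2.80%. In K562 the count was 3 (0.493%, 0.168 to 1.44) beside 1.76%; ZNF767 is listed there too and is annotated as the non-coding ZNF767P. The full-length list of T98G held 8 (1.32%, 0.668 to 2.57) beside 4.27%. The siRNA table held 22 (3.62%, 2.40 to 5.42) in either direction beside 6.29%. In none of the 5 lists did the interval of the zinc finger share reach the background share. Expression decides which genes can be called, and these lists hold no expression level, so the part of expression in these shares was not tested.

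Genes with a KRAB-like pattern in their protein had a smaller listed share in T98G than the other zinc finger genes, with intervals that just overlap. A KRAB-like pattern, an approximate search that can miss divergent domains, was found in the protein of 306 of the 608 genes. In T98G 6 of these 306 (1.96%, 0.902 to 4.21) had a listed exon, and 19 of the 302 without the pattern did (6.29%, 4.06 to 9.62). In U87MG the counts were 2 of 306 (0.654%, 0.179 to 2.35) and 5 of 302 (1.66%, 0.709 to 3.82), and in K562 1 and 2, with intervals that overlap widely. The full-length list held 0 of 306 (0 to 1.24%) and 8 of 302 (2.65%, 1.35 to 5.14). In the siRNA table the shares were alike, 11 of 306 (3.59%, 2.02 to 6.32) and 11 of 302 (3.64%, 2.05 to 6.40). Position on the genome moved with this split, since 207 of the 306 genes with the pattern and 57 of the 302 without it lie on chromosome 19. Of the 264 zinc finger genes on chromosome 19, 4 (1.52%, 0.591 to 3.83) had a T98G exon, beside 39 of all 1480 protein-coding genes there (2.64%, 1.93 to 3.58) and 21 of the 344 zinc finger genes elsewhere (6.10%, 4.03 to 9.15). Away from chromosome 19, 2 of 99 genes with the pattern (2.02%, 0.556 to 7.07) and 19 of 245 without it (7.76%, 5.02 to 11.8) had a T98G exon; on it, 4 of 207 (1.93%, 0.754 to 4.86) and 0 of 57 (0 to 6.31%) did.

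**Figure D1:**
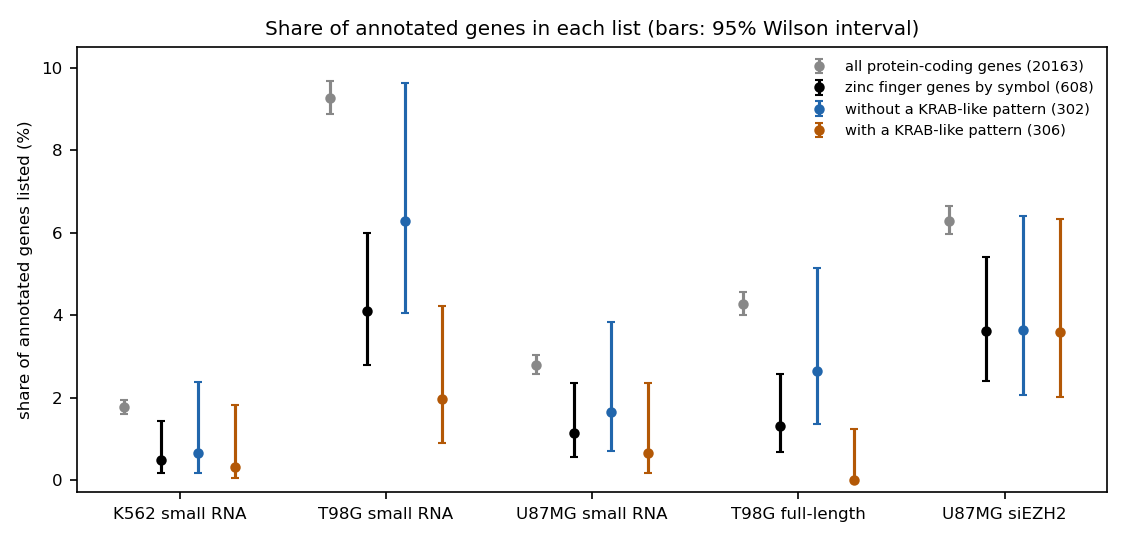
Share of annotated genes found in each list, in percent, for all protein-coding genes, for zinc finger genes by symbol, and for those without and with a KRAB-like pattern; points are shares and bars 95% Wilson intervals. In T98G small RNA the points fall from 9.27% for all genes to 1.96% for genes with the pattern, while both classes of the siEZH2 table sit at 3.64% and 3.59%.

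Most of the 54 genes were in a single list. There were 44 genes in 1 list (81.5%, 69.2 to 89.6), 7 in 2 and 3 in 3, and of all 4083 symbols 76.9% were in 1 list, so in this the zinc finger genes were not told apart from the lists as a whole. A small RNA list held 30 of them, 19 were found in the siRNA table alone, and 4 in the full-length list alone. The list of retained introns near EZH2 small RNAs in U87MG, with 38 genes, held none. As the rule took only 54 of the 4083 symbols, 0 of 38 is not told apart from that share. The 3 genes in 3 lists were ZNF638, with small RNA exons in all 3 cell lines; ZBTB47, with an exon in both glioblastoma lines and a full-length call; and ZNF598, with a T98G exon, a full-length call and a lower level under siEZH2.

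**Figure D2:**
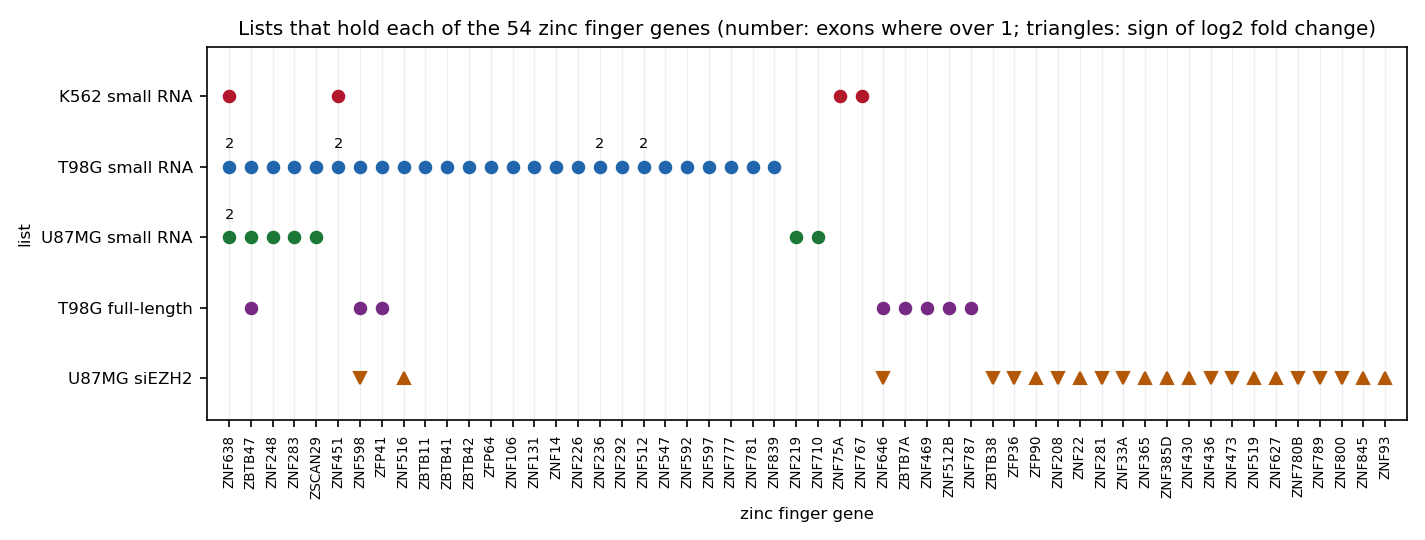
Each column is 1 of the 54 zinc finger genes and each line 1 list; a symbol marks a gene in that list, a number the exons where there were several, and triangles in the siEZH2 line point up or down with the sign of the log2 fold change. The K562, T98G and U87MG small RNA lists hold 4, 26 and 7 of the genes, the full-length list 8 and the siEZH2 table has 22, mostly in different columns.

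ZNF638, a nuclear protein with RNA recognition motifs that silences unintegrated retroviral DNA, was the one zinc finger gene with small RNA calls in all 3 lines. No single exon of it was called in all of them. The 955 bp coding exon 24 of 28 (chr2:71653590-71654544) was listed in K562 and T98G. A 402 bp region (chr2:71660295-71660696) was listed in T98G and U87MG; it matches the last exon of a non-coding transcript and covers 1 complete finger pattern of the canonical protein. The 66 bp coding exon 23 was listed in U87MG alone. The peak of exon 24 lay 460 bases from its 5′ end, close to its middle, and that of the 402 bp region 53 bases from its 5′ end.

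ZNF451, a SUMO ligase, had the same 1604 bp exon in K562 and T98G (exon 10 of 15, chr6:57011888-57013491), which encodes 7 of the protein's 10 finger patterns. Its T98G peak lay 23 bases from the exon's 5′ end, outside the patterns. A second T98G exon of ZNF451, 95 bp wide, is the last exon of a short transcript. Exons were shared between lines about as often as in the lists as a whole. Of the 8 zinc finger exons of U87MG, 5 (62.5%, 30.6 to 86.3) were also listed in T98G (ZBTB47, ZNF248, ZNF283, ZNF638 and ZSCAN29), against 65.0% of all U87MG exons; seen from T98G these are 5 of 30 (16.7%), against 16.9%. Of the 4 K562 exons 2 were listed in T98G (50.0%, 15.0 to 85.0), against 45.6% of all K562 exons, and 0 in U87MG, against 19.9%. The 2 shared K562 exons are 6.67% of the 30 T98G exons, against 7.03%.

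The genes with a KRAB-like pattern and small RNA calls were called outside their finger arrays. They were ZNF14, ZNF226, ZNF248, ZNF283, ZNF547, ZNF75A and ZNF777, with 7 distinct exons, of which 0 held a complete finger pattern, although their proteins have between 5 (ZNF75A) and 17 (ZNF14, ZNF226). The listed exon was a 5′ UTR or the first coding bases in ZNF14 (142 bp, exon 1 of 4), ZNF248 (98 bp, exon 2 of 6), ZNF283 (165 bp, exon 2 of 7) and ZNF547 (501 bp, exon 1 of 2). In ZNF777 it was the 252 bp coding exon 5 of 6, in ZNF226 the 671 bp last exon of a non-coding transcript, and in ZNF75A a 4067 bp region around exon 2 of 7, which is also listed under the name LA16c-360H6.2. The ZNF547 exon likewise carries a second name, AC003002.4. In ZNF781, non-coding here, the 2806 bp last exon held 8 of the 14 matches in T98G zinc finger exons to ACNGGNGANAANCC, the letters that encode the linker between fingers (RNA strand). The motif was present in 4 of the 30 zinc finger exons and in 6 of all 2573 T98G exons.

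Among the genes without the KRAB-like pattern 13 of 28 distinct exons held at least 1 finger pattern. The 28 include the exons of ZNF767 and ZNF781, which have no annotated protein to search. Exons with 5 or more were those of ZNF451 (7 patterns), ZNF597 (7, in the 1435 bp last exon), ZFP64 (6, in 2151 bp), ZSCAN29 (6, in the 3770 bp last exon), ZNF219 (6, in 1964 bp) and the single-exon gene ZBTB42 (5, in 3800 bp). ZFP64 is known as an activator of the leukaemia gene MLL. The genes with ZBTB symbols and small RNA exons were ZBTB11 (1601 bp), ZBTB41, ZBTB42 and ZBTB47 (145 bp, exon 5 of 6), and none of the 4 is in the siRNA table. ZNF236 had exons 8 and 21 of 31 listed in T98G (204 and 104 bp), and ZNF512 exons 5 and 9 of 14 (84 and 168 bp), both also named RP11-158I13.2. The remaining T98G exons lay in ZNF106 (634 bp), an RNA-binding splicing regulator, ZNF131 (248 bp), ZNF292 (155 bp), ZNF516 (1450 bp), ZNF592 (288 bp), ZNF598 (1542 bp), ZNF839 (903 bp) and ZFP41 (704 bp). ZNF219 and ZNF710 (67 bp, exon 1 of 2, 5′ UTR) were listed in U87MG alone.

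Zinc finger exons were wider than the rest of the list in T98G and K562. In T98G the 30 exons ran from 84 bp (ZNF512) to 6335 bp (ZBTB41) with a median of 568 bp, and the whole list of 2573 had a median of 187 bp. Exons over 1000 bp made up 10 of 30 (33.3%), against 17.5% of the list. The 4 K562 exons were 955 bp (ZNF638), 1604 bp (ZNF451), 2221 bp (ZNF767) and 4067 bp (ZNF75A), a median of 1912 bp against 188 bp. In U87MG the 8 exons ran from 66 bp (ZNF638) to 3770 bp (ZSCAN29), and their median of 155 bp was close to the 166 bp of the list. The annotation has the same kind of difference in last exons, with a median of 3112 bp in zinc finger genes and 1380 bp in all protein-coding genes, while the median over all exons was 129 and 133 bp. Of the 4 K562 exons, however, 3 were internal and 1 was a last exon. The part of last exons in the widths was not tested.

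**Figure D3:**
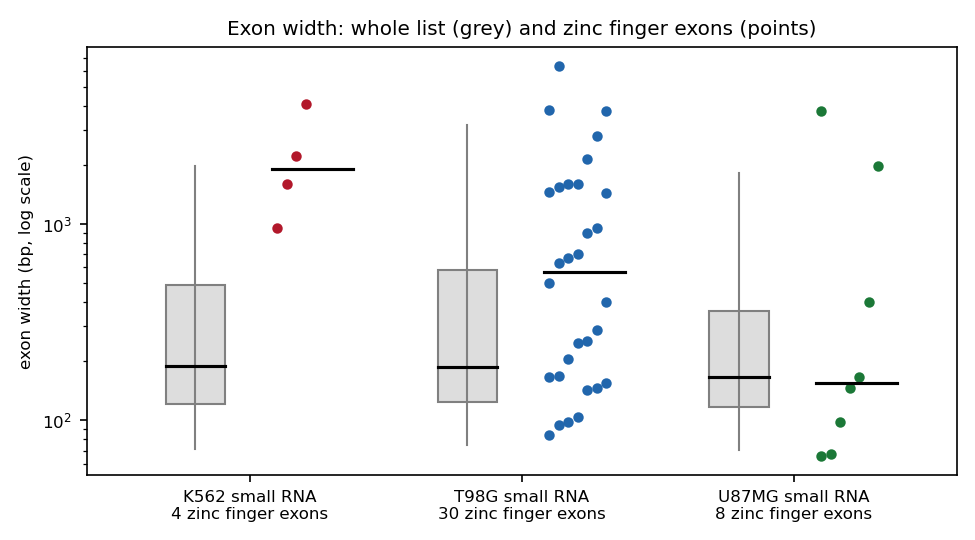
Width in bp on a log scale of the exons in each small RNA list. Grey boxes span the quartiles of the whole list with its median, grey lines the 5th to 95th percentile, points are single zinc finger exons and black lines beside them their medians, which are 1912, 568 and 155 bp.

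Last exons were 11 of the 30 T98G zinc finger exons (36.7%, 21.9 to 54.5), against 16.9% of the list. Zinc finger exons were matched to transcripts of their own symbol, other exons to those of any gene. Counted on canonical transcripts by any overlap, 20.0% of the 30 were last exons, a share not computed for the whole list. Internal exons were 15 (50.0%, against 71.1%), first exons 3 and single exons 1. By the transcript matched to each exon, 17 of the 30 peaks lay in coding sequence (56.7%, against 65.1% of all peaks). In a 5′ UTR lay 5 (16.7%, against 2.72%), in a 3′ UTR 4 and in exons of non-coding transcripts 3. The last group includes the peak of the 402 bp ZNF638 region, which is coding in the canonical transcript. The peak of ZNF292 lay 9 bases past the exon's end. The 5′ UTR peaks were those of ZNF14, ZNF131, ZNF248, ZNF283 and ZNF547, 4 of them genes with a KRAB-like pattern.

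Sequence shared between genes can place a short read wrongly, which matters in a family that grew by duplication. Over the T98G zinc finger exons, 3.90% of all stretches of 25 bases occurred again in annotated exons, against 8.03% over the whole list. Copies within the same exon counted too, so the shares are not only sequence shared between genes. While the pooled share was lower, exons with no such stretch were also fewer, 17 of 30 (56.7%) against 69.6%. The shares were 6.23% against 5.48% in K562 and 6.80% against 7.09% in U87MG. The highest shares, from 11.1% to 16.3%, were those of ZFP64, ZSCAN29, ZNF75A and ZNF598, in rising order. Last exons of the 608 annotated zinc finger genes had a median share of 6.78%, against 0.229% in every 20th protein-coding gene.

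The adapter's first letters lay beside the zinc finger peaks of T98G in a share not told apart from that of all peaks in the list. Its later part was searched for only after these peak sequences had been seen, so no difference from the list can be read from its counts. AGAT at 11 to 15 bases was found in 4 of 28 peaks (14.3%, 5.70 to 31.5), against 25.8% of all 2463 peaks with a whole-base middle. At 31 to 35 bases, the same search 20 bases further on, it was found in 1 of 28 and in 3.41% of all. GAAGAG at 17 to 21 bases was found in 6 of 28 (21.4%, 10.2 to 39.5), against 10.6%, and at 37 to 41 bases in 0 of 28 and 0.650%. The longer GAAGAGC was found in 5 of 28 (17.9%, 7.88 to 35.6), against 5.20% of all, and at 37 to 41 bases in 0 of 28 and 0.284%. Either part was present in 10 of 28 (35.7%, 20.7 to 54.2), against 34.5%, and 20 bases further on in 1 of 28 and 4.06%. AGATCG in the first window was found in 0 of 28 (0 to 12.1%), against 4.59%. AGAT lies within AGATCG, so those counts are nested. For AGAT and for either part the list's share lies inside the interval of the zinc finger peaks. For GAAGAG it lies just above the lower bound, and for GAAGAGC below it. Both searches were chosen after these peak sequences had been seen, so their intervals test nothing and the counts are descriptions of these peaks.

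**Figure D4:**
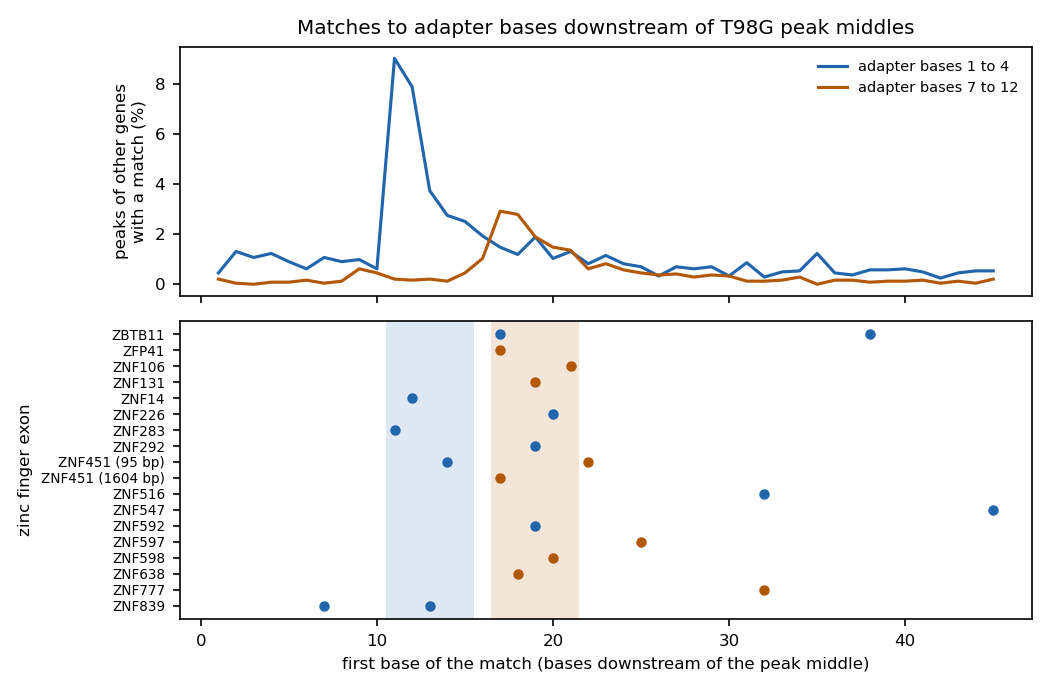
Above, percent of the 2435 T98G peaks of other genes in which adapter bases 1 to 4 or 7 to 12 start at each distance, in bases downstream of the peak middle. Below, every match in the zinc finger peaks, 1 line per exon with a match, with the 2 search windows shaded; 4 exons have a match in the first window and 6 in the second.

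Searched over whole exons, AGATCG on the RNA strand was present in 4 of 30 T98G zinc finger exons (13.3%, 5.31 to 29.7; ZBTB11, ZFP64, ZNF592 and ZNF777), against 10.6% of the list. On the opposite strand it was present in 2 (6.67%, 1.85 to 21.3), against 2.99%. In U87MG it was in 2 of 8 (ZNF219 and ZNF710), against 10.8% of the list, and on the opposite strand in 1 of 8, against 1.05%. In K562 it was in 1 of 4 (ZNF75A, 3 matches), against 7.81%, and on the opposite strand in 0 of 4, against 1.26%. Width bears on these counts, since a wide exon holds more letters: per kb the zinc finger exons had 0.120 matches on the RNA strand in T98G, against 0.183 in the list, but 0.339 against 0.177 in K562 and 0.300 against 0.255 in U87MG, where they rest on 3 and 2 matches.

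The full-length list gave 8 zinc finger genes as whole gene bodies. They were ZBTB7A (22.6 kb), a BTB repressor of fetal globin genes; ZBTB47 (13.9 kb); ZNF469 (13.3 kb), mutated in brittle cornea syndrome; ZNF598 (12.2 kb); ZNF646 (9.78 kb); ZNF787 (33.9 kb); ZNF512B (92.9 kb, 1 region with SAMD10 and SOX18); and ZFP41 (30.1 kb, 1 region with GLI4). For the last 2, which gene of the joined region was called cannot be told. Their median was 18.2 kb, against 24.2 kb for all 824 regions. Of the 30 T98G small RNA exons of zinc finger genes, 3 lay inside a full-length target (10.0%, 3.46 to 25.6; ZBTB47, ZFP41 and ZNF598), against 310 of all 2573 T98G exons.

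Under siEZH2 in U87MG the 22 listed zinc finger genes split between both directions. In the authors' deposited table of changed genes, 10 were higher (45.5%, 26.9 to 65.3; background 49.3% of its 1342 rows) and 12 lower (background 50.7%). The table holds only genes below an adjusted p of 0.05 by its name, with no p-value, error or base level per gene. EZH2 itself is not among its rows, so the siRNA target was not among the genes called as changed, for a reason not given. Every fold change below therefore rests on a knockdown that these rows do not show. Most changes were small: 3 of 22 (13.6%) reached an absolute log2 fold change of 1, against 34.9% of all rows. Among higher rows the median log2 fold change was 0.83, against 1.01 over all higher rows, and among lower rows −0.80, against −0.74.

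Of the 11 listed genes with a KRAB-like pattern, 6 were higher and 5 lower in the authors' deposited table. The log2 fold changes of the higher ones were 0.94 (ZNF627), 0.91 (ZNF519), 0.86 (ZNF93, which represses LINE-1 elements), 0.80 (ZNF845), 0.78 (ZNF430) and 0.70 (ZFP90). Those of the lower ones were −1.39 (ZNF208, the lowest of the 22), −1.05 (ZNF789), −0.97 (ZNF33A), −0.87 (ZNF780B) and −0.68 (ZNF436). Without the pattern 4 were higher and 7 lower. The higher ones were ZNF365 at 1.31, the highest of the 22 and a gene linked to genome stability, ZNF385D at 0.87, ZNF516 at 0.72 and ZNF22 at 0.67. The lower ones were ZNF598 at −0.97, ZFP36 at −0.83, ZNF473 at −0.77, ZNF646 at −0.76, ZNF281 at −0.66, ZNF800 at −0.61 and ZBTB38 at −0.54. ZNF598 is the ubiquitin ligase that marks collided ribosomes, ZFP36 binds AU-rich elements and speeds mRNA decay, ZNF473 takes part in histone pre-mRNA processing, and ZBTB38 binds methylated DNA. On chromosome 19, 4 of 8 were higher, against 20 of all 69 rows there (29.0%).

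**Figure D5:**
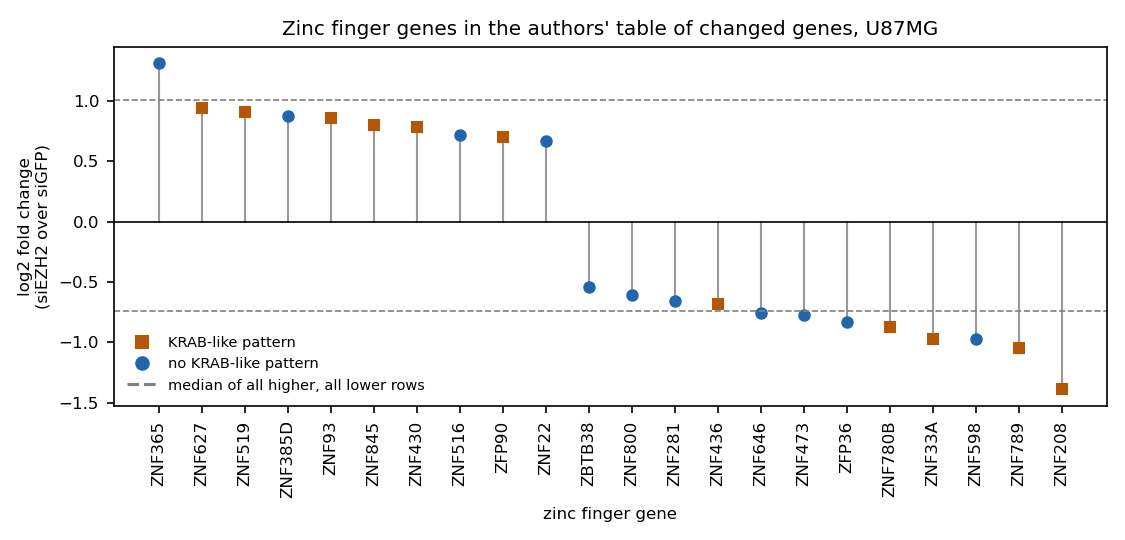
Log2 fold change of siEZH2 over siGFP in U87MG for the 22 zinc finger genes in the authors' deposited table, ordered by value, with squares for a KRAB-like pattern and circles for none; dashed lines are the medians of all higher rows (1.01) and all lower rows (−0.74). Both symbols occur on both sides, from 1.31 in ZNF365 to −1.39 in ZNF208.

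Reads for these fold changes were counted without strand per the labels, and paralogs can share them. In 7 of the 22 genes more than 10% of the 25-base stretches of the last exon occur again in annotated exons. The 7 are ZNF430 (38.6%), ZNF845 (37.6%), ZNF208 (37.3%), ZNF93 (37.0%), ZNF33A (27.8%), ZNF598 (16.6%) and ZNF780B (16.5%), 3 of them higher and 4 lower. Copies within the same exon are counted too, so sharing with paralogs was not measured apart. In 8 of 22, exon bases lie under an exon of the opposite strand, in 2 of them of a protein-coding gene (42.9% of the ZNF789 exon bases, under ZNF394, and 760 of the 6892 of ZNF646, under PRSS53 and another gene). The values of these genes are uncertain for these reasons, to an extent not known, and the part of either in the fold changes was not tested. Of the 22, ZNF516, ZNF598 and ZNF646 were also in another list (13.6%, 4.75 to 33.3), against 302 of all 1341 genes of the table (22.5%); ZNF516 was higher, with its exon listed in T98G, and the other two lower.

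Partner genes of zinc finger proteins, from lists of known members, were listed as follows. By symbol, 17.8% of all protein-coding genes were in at least 1 list and 8.49% in the T98G small RNA list. Of 25 corepressor gene symbols of KRAB and SCAN proteins, 13 were in at least 1 list, 9 of them with a T98G small RNA exon (CBX1, CBX3, CBX5, CHD3, HDAC1, MORC2, DNMT3A, TRIM33 and EHMT1). FAM208A and TASOR, both among the 25, are the old and new symbol of the same gene, listed as FAM208A alone. TRIM28 and SETDB1, the core of KRAB silencing, were in the full-length list alone. In the authors' deposited table CBX3, a heterochromatin protein, was higher under siEZH2 (log2 fold change 0.58) and TRIM33 lower (−0.75). Of 16 partner genes of BTB proteins, 9 were listed. NCOR1, the scaffold of a histone deacetylase complex, had an exon in K562, 3 in T98G, 1 in U87MG and a retained intron, and BCOR and HDAC7 were lower under siEZH2 in that table (−0.90 and −0.93). Of 11 PRC2 genes 5 were listed: EZH2 with an exon in K562 and in T98G, SUZ12 and MTF2 in T98G, EZH1 in U87MG and the full-length list, and PHF19 higher under siEZH2 in the authors' deposited table (1.24).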

How the data were processed

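The deposited files are 6 lists of regions called by the authors. Per the labels, small RNA reads went through cutadapt, BWA (hg19) and bedtools counting over exons, and the authors used DESeq2 for exon calls and pyicoclip for peaks; genes were counted with featureCounts after Tophat (long RNA, siRNA, the latter without strand) or Bowtie2 (iCLIP). Thresholds are not given in the sources used here. The deposited siRNA table holds the authors' log2 fold change, taken as siEZH2 over siGFP from the order of names. The authors' deposited score per retained intron was not used. In the T98G list the authors' deposited value was read as a signed distance, and exon middle minus distance as the peak middle. In the other lists it equals the number of joined names, and is not a measurement. The files have 0 columns that belong to a single library.

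Regions were matched to the GRCh37 genome and to GENCODE release 44 mapped to it (Python 3.11.15, pysam 0.24.0); 1 shared base on the same strand counted as overlap, and coordinates are 1-based. A finger pattern is C, 2 to 4 residues, C, 12 residues, H, 3 to 5 residues, H in the translated canonical frame. Motif and overlap searches were tested on simulated data. Full-length and siRNA rows were matched to annotated genes by symbol, small RNA exons by overlap. Genes were named where they were in the siRNA table, the full-length list, 3 lines or several exons of a line, or had the widest or narrowest exon; others were named to account for every gene, after their values were seen. The genes and lists were chosen with earlier results of these data known.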

Additional observations from a re-analysis of the deposited data

How the results depend on the processing

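Each value was recomputed with 1 choice changed at a time: 57 alternatives over 31 values, of which 48 stayed within the interval of the reported share or median, or within 1.5 times the reported count. The 9 others follow. The full-length list held 5 genes in place of 8 with ZNF symbols alone. Counted by covered bases in place of rows, zinc finger genes made up 4.47% of the K562 list (1.01% of rows) and 1.97% of the T98G list (1.17% of rows); their exons are wide there. On canonical transcripts by any overlap 20.0% of T98G zinc finger exons were last exons, in place of 36.7%. AGATC in place of AGATCG, a shorter motif, was in 75.0% of exons in K562 (in place of 25.0%), 53.3% in T98G (13.3%) and 62.5% in U87MG (25.0%). With the other sign of the distance AGAT was beside 3.57% of T98G peaks in place of 14.3%, and GAAGAG, added after seeing the data, beside 0 in place of 21.4%. Places of peaks in coding sequence, untranslated regions and finger patterns were not recomputed with that sign. No paired analysis was possible because the lists hold no values for single libraries. For the same reason leaving out a replicate could not be run, and read depth, which limits every call, is unknown; with 4, 28 or 8 exons or peaks the intervals are wide.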

Other observations

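Of 84 C2H2 genes outside the name rule, 19 were in a list, where 17.8% of all protein-coding genes were by symbol, 8 of them with a T98G small RNA exon (KLF13, SP1, SP3, ZEB2, HIVEP2, MTF1, POGZ and TSHZ1) and 0 with one in K562 or U87MG. The background in the T98G list was 8.49%. In K562 and U87MG it was 1.76% and 2.80%, counted by overlap, so few of 84 genes would be listed there at those shares. In the authors' deposited siRNA table there were 7, 4 higher and 3 lower, beside a background of 6.29% in either direction. The T98G and siRNA counts are near these backgrounds. Regulators of epithelial to mesenchymal transition were on both sides there: SNAI2 had a log2 fold change of 1.34 and ZEB1 of 0.64, and SNAI1 of −1.15. BCL11B, a T cell and neuronal regulator, stood at 1.41 and MECOM at 0.84, while KLF10 stood at −1.16 and GLIS2, also a full-length target, at −1.24. Of these 7, 5 had an absolute log2 fold change of at least 1, where 34.9% of all 1342 rows did. Among the 22 genes with zinc finger symbols 3 did. A share of 7 genes is too uncertain to set the groups apart.

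Of 9 K562 marker genes 1 was in a list (BCR, in T98G), and of 9 glioblastoma marker genes 5 were. CD44, EGFR, FN1 and TNC had T98G exons, TNC also one in U87MG, and CD44 and SPARC one in K562. The lists hold no levels, so they do not show which line expresses a marker more.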
